A study of Mus musculus with 12 samples.

Results

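The Notch receptors, their ligands and a pair of their target genes were followed through RNA-seq libraries of mouse sensory ganglia. The 10 genes were selected on their symbols as the receptors Notch1, Notch2, Notch3 and Notch4, the ligands Jag1, Jag2, Dll1 and Dll4, and the targets Hes1 and Hey1, out of 22609 genes in the count files. The set was proposed with the sex difference of Notch3 in TG neuron fractions already known, so female and male TG are compared here with no test. The same contrast in DRG and the comparison of TG with DRG were tested, though the members were chosen with earlier results of these data known.

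Libraries were made from dorsal root ganglia (DRG), which hold the sensory neurons of the body, and trigeminal ganglia (TG), which hold those of the head. All animals were naive wild-type mice, labelled as C57BL (C57BL/6J in the study's methods) and as aged 3 to 4 months. The study's methods give a younger age and state that the females were in the estrous phase. The 12 libraries formed 4 groups of 3, by sex and ganglion, and each was made from ribosome-depleted total RNA of cells separated by density on a Percoll gradient to enrich sensory neurons. The labels do not say how many animals went into a library or whether a TG and a DRG library came from the same animal, so the spread between libraries may in part be technical.

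Notch receptors span the membrane of one cell and are bound by Jagged or Delta-like ligands on the surface of a neighbouring cell. Binding lets ADAM proteases and gamma-secretase cut the receptor, and the freed intracellular part enters the nucleus, joins the DNA-binding protein RBPJ and switches on genes such as those of the Hes and Hey families of repressors. In developing sensory ganglia the pathway is known for setting the choice between neuronal and glial fate, and in vessels for artery and mural cell development.

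The fractions held neurons together with other cells. Reads in genes numbered from 7511765 to 15396090 per library, at which 3 counts equal 0.207 to 0.357 CPM (read count scaled to a common library total), and log2 CPM of libraries of a group correlated at 0.836 to 0.961. The defining neuronal markers Tubb3 and Avil had medians of 2060 and 445 CPM. Markers of other cells were also present in every library, with lowest levels of 340 CPM for Fabp7 of satellite glia, 75.0 and 14.5 CPM for Rgs5 and Acta2 of mural cells, and 28.3 and 23.5 CPM for Pecam1 and Cdh5 of endothelium. In such bulk fractions, fewer cells of a type and less RNA per cell cannot be told apart. The libraries numbered 3 stood apart in all 4 groups, with a summed level of 10 satellite glia markers of 2820 to 4340 CPM against 4940 to 7350 CPM in the other 8 libraries. Apoe weighs most in this sum, with a median of 2860 CPM, and the next marker, Glul, had 728 CPM.

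Jag1 and Hey1 had the highest levels per length in these fractions. Over the 12 libraries the mean RPKM (CPM divided by the exon length in kilobases) was 15.8 ± 4.56 for Jag1 and 15.5 ± 2.42 for Hey1 (SD, n = 12). Notch2 followed at 11.4 ± 4.29 RPKM, Notch1 at 9.89 ± 4.48 RPKM and Jag2 at 5.0 ± 2.56 RPKM. Notch3, Hes1 and Dll4 lay close together at 3.53 ± 2.96, 3.10 ± 1.98 and 2.63 ± 2.11 RPKM. The lowest were Notch4 at 1.0 ± 0.787 RPKM and Dll1 at 0.607 ± 0.439 RPKM. Of the 9 neighbouring pairs in this order, the mean difference within libraries exceeded its SD only for Hey1 over Notch2, Notch1 over Jag2 and Dll4 over Notch4, the last of these in 12 of 12 libraries. Jag1 was above Hey1 in only 6 of 12 libraries, so these do not differ beyond their spread.

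**Figure D1:**
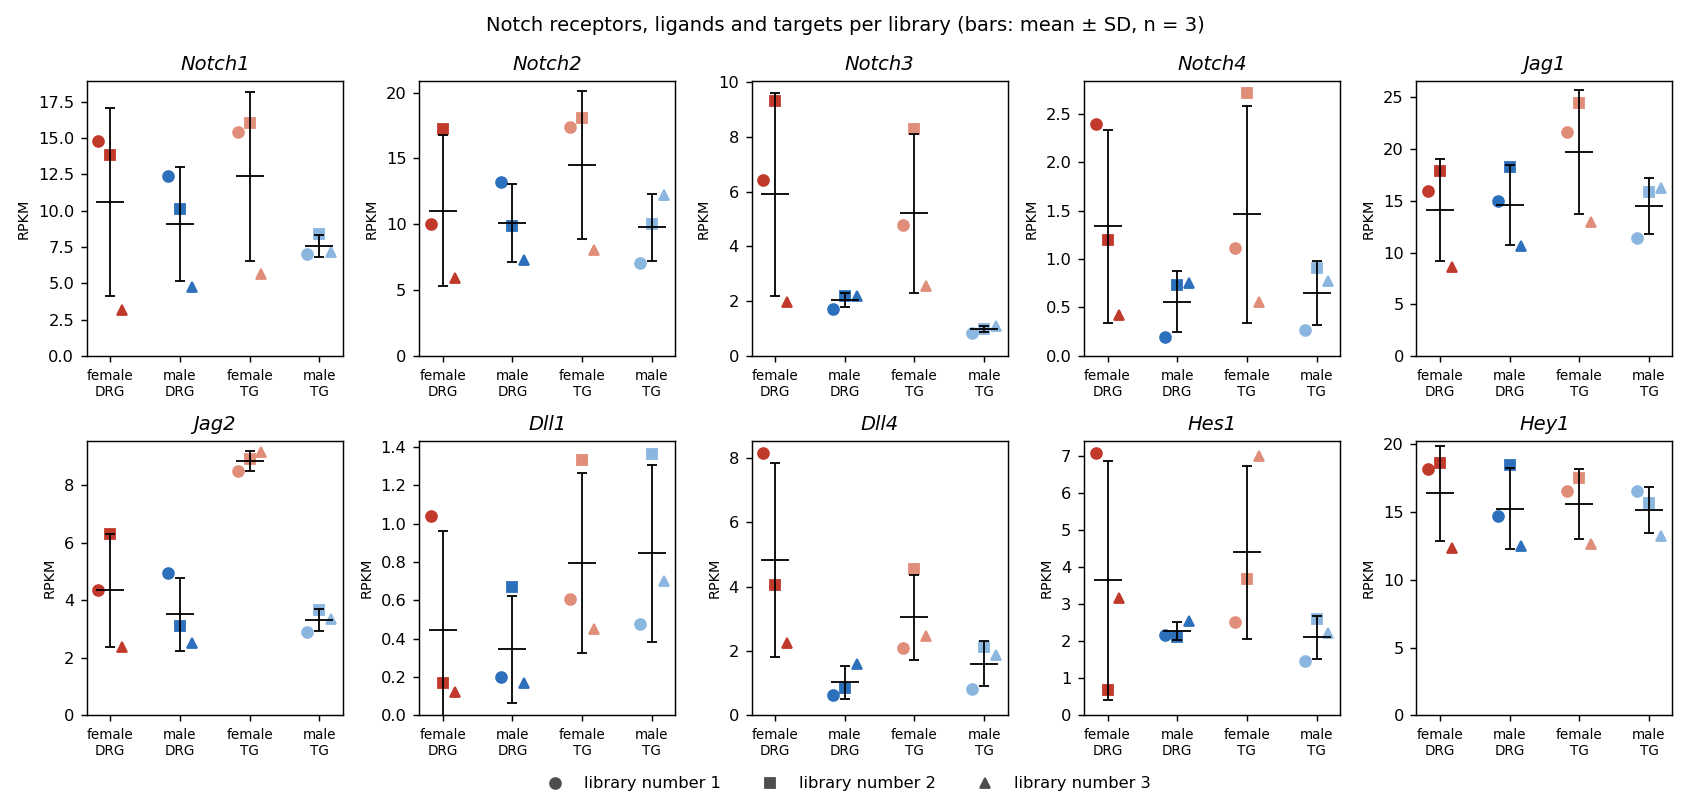
Level of each gene in RPKM (y axis, from 0) in the 3 libraries of each group (x axis), with the shape of a point giving the library number and bars the mean ± SD. Notch3 and Jag2 in TG and Dll4 in DRG are the panels in which the 3 female points lie above the 3 male points, and Hey1 is nearly level over the groups, with the libraries numbered 3 lowest in each.

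Among the receptors, Notch3 was the one whose level did not overlap between the sexes in TG, and in DRG no receptor was free of overlap. Notch3 (ENSMUSG00000038146.7, minus strand of mm9 chromosome 17, 32257765 to 32303825, protein coding) is the receptor of vascular mural cells, that is of smooth muscle and pericytes. In TG, the 3 female libraries held 38.5, 66.9 and 20.5 CPM of Notch3 and the 3 male libraries 6.83, 8.01 and 8.75 CPM. All 3 female libraries were above all 3 male libraries, and female TG 2 was the highest. The fitted log2 fold change of female over male was 2.47 (SE 0.42), a fold of 5.55, which is a description because it is the contrast the set was proposed from. After correction for the GC content and length of genes it was 1.36.

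In DRG, Notch3 stood at 51.6, 75.0 and 15.8 CPM in females and 13.9, 17.6 and 17.5 CPM in males. These are other libraries than those of TG, but the members were chosen with earlier results of these data known. The DRG contrast is therefore not an independent check. Female DRG 1 and 2 were above every male library, whereas female DRG 3 lay among the males, so the groups overlapped. The log2 fold change was 1.54 (SE 0.48), a fold of 2.91, and it did not pass after adjustment over all genes (edgeR adjusted p = 0.309, range 0.0112 to 0.953 over the alternatives). DESeq2 gave 1.55 with an adjusted p of 0.0498, where 317 of 13958 genes passed. Without the libraries numbered 3 the edgeR estimate was 2.04 with an adjusted p of 0.0112, where 1413 of 14074 genes passed. Without female DRG 2 it was 1.05. With the GC and length correction it was 0.84 (edgeR adjusted p = 0.638). The sex effect was 0.88 larger on the log2 scale in TG than in DRG, with an SE of 0.66. For this difference of sex effects, 0 of 14829 genes had an edgeR adjusted p under 0.05.

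Notch1 and Notch2 are the broadly expressed receptors of the family. Notch1 (ENSMUSG00000026923.8, chromosome 2, 26313423 to 26372183) had 211, 196 and 44.9 CPM in female DRG and 177, 144 and 67.3 CPM in male DRG. The library numbered 3 was far below the others in each sex, and the sexes overlapped. In TG, Notch1 had 218, 228 and 80.5 CPM in females and 100, 120 and 102 CPM in males, again with female TG 3 lowest and below every male library. Its log2 fold changes of female over male were 0.77 (SE 0.35) in TG and 0.24 (SE 0.49, edgeR adjusted p = 0.901) in DRG, and after GC and length correction both were below 0, at -0.25 and -0.46. Notch2 (ENSMUSG00000027878.9, chromosome 3, 97817461 to 97954290) ranged from 62.0 to 190 CPM and overlapped between the sexes in each ganglion, with log2 differences of 0.63 (SE 0.33) in TG and 0.14 (SE 0.37, edgeR adjusted p = 0.928) in DRG. Its corrected values were likewise below 0, at -0.08 and -0.35.

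Notch4 (ENSMUSG00000015468.8, chromosome 17, 34701213 to 34725448) is a receptor known chiefly from endothelium. It had 19.3, 9.70 and 3.39 CPM in female DRG and 1.59, 5.91 and 6.07 CPM in male DRG, and 8.98, 21.9 and 4.49 CPM in female TG against 2.19, 7.32 and 6.19 CPM in male TG. The lowest female library lay inside the male range in each ganglion. The log2 fold changes were 1.23 (SE 0.63) in TG and 1.25 (SE 0.76, edgeR adjusted p = 0.545) in DRG, and the GC and length correction brought them to 0.09 and 0.50. The TG value was 0.36 without female TG 2 and the DRG value 0.52 without female DRG 1.

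The mix of receptors within a library, a share that does not depend on the scaling between libraries, differed in the same way. Notch1 and Notch2 together made up most of the receptor RPKM in every library. Notch3 made up 12.4%, 18.4% and 15.2% of it in female TG and 5.58%, 4.90% and 5.13% in male TG. In DRG the share of Notch3 was 19.1%, 22.4% and 17.1% in females and 6.29%, 9.58% and 14.6% in males. The sexes did not overlap in either ganglion in this share, and in DRG this included the female library numbered 3, whose Notch3 level itself was not raised. Its share stood over a low total, as its summed receptor level was 11.4 RPKM, against 33.7 and 41.5 RPKM in female DRG 1 and 2. Male DRG 3, with the highest male share, likewise had 14.9 RPKM, against 27.5 and 22.9 RPKM in male DRG 1 and 2. The share was computed after the levels had been seen, so no test is given.

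**Figure D2:**
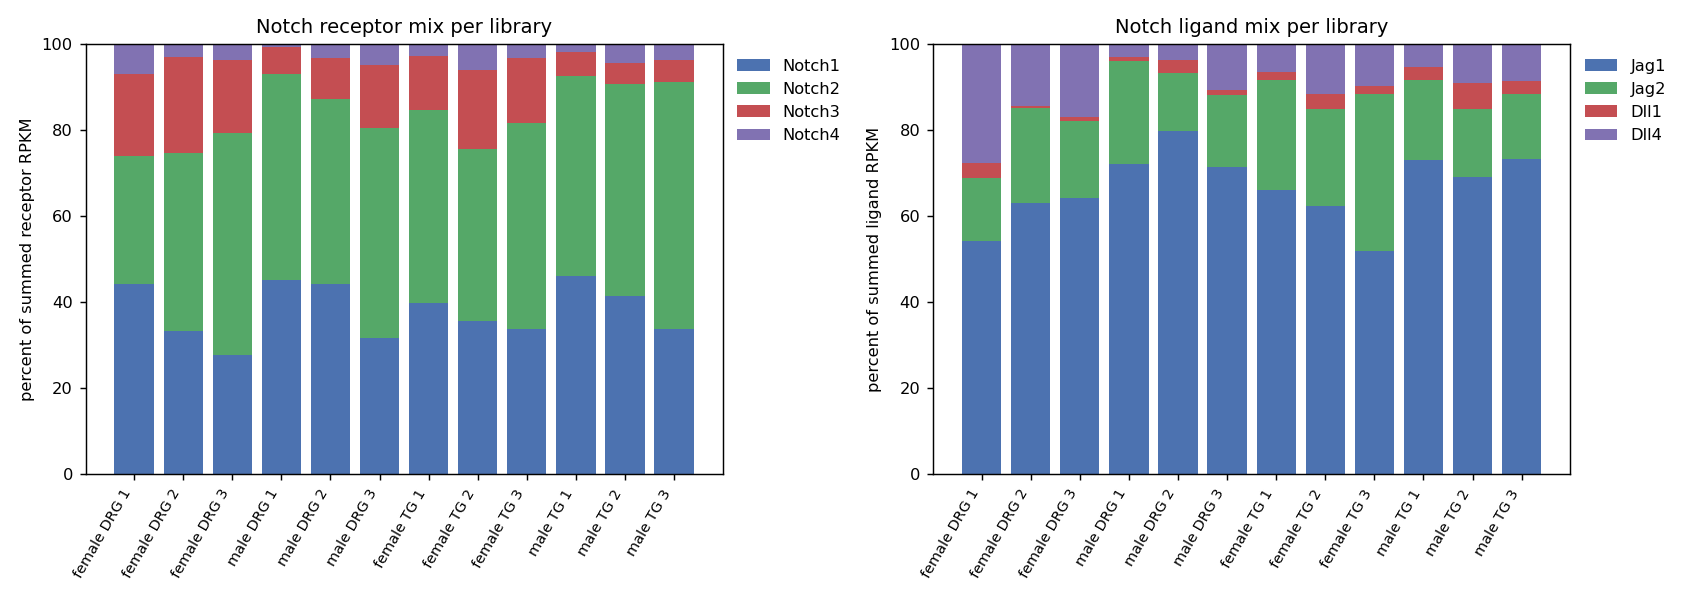
Percent of the summed RPKM of the 4 receptors (left) and of the 4 ligands (right) held by each gene in each of the 12 libraries. Notch3 takes 12.4% to 22.4% of the receptor signal in each female library, against 4.90% to 14.6% in each male library, and Jag1 holds 51.8% to 79.8% of the ligand signal throughout.

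Of the ligands, Jag2 separated the sexes in TG and Dll4 in DRG. Jag2 (ENSMUSG00000002799.5, chromosome 12, 114146801 to 114167706) is the less abundant Jagged ligand here. In TG it had 34.3, 36.1 and 37.1 CPM in females and 11.7, 14.9 and 13.6 CPM in males. The female libraries lay close together and the gap to the males was wider than the spread of either sex. Its TG log2 fold change was 1.47 (SE 0.26), a fold of 2.76, which is given as a description, and it was 0.78 after GC and length correction. In DRG, Jag2 had 17.6, 25.5 and 9.66 CPM in females and 20.0, 12.6 and 10.2 CPM in males. These groups overlapped and the fitted log2 difference was 0.32 ± 0.46 (SE, edgeR adjusted p = 0.847). The sex effect was 1.11 larger in TG than in DRG on the log2 scale, with an SE of 0.53. For this difference too, 0 of 14829 genes had an edgeR adjusted p under 0.05, the smallest being 0.9998.

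Dll4 (ENSMUSG00000027314.6, plus strand of chromosome 2, 119151520 to 119161698) is the Delta-like ligand of arterial and sprouting endothelium. In DRG it had 31.4, 15.7 and 8.72 CPM in females and 2.43, 3.28 and 6.15 CPM in males. Every female library was above every male library, and female DRG 1 was the highest of all 12. The log2 fold change was 2.22 (SE 0.61), a fold of 4.66, and it did not pass after adjustment (edgeR adjusted p = 0.307, range 0.0193 to 0.953 over the alternatives). It was 1.95 after GC and length correction and 1.60 without female DRG 1. Without the libraries numbered 3 it was 3.08 (edgeR adjusted p = 0.0193), where 1413 of 14074 genes passed. In TG, Dll4 had 8.10, 17.5 and 9.54 CPM in females and 3.19, 8.15 and 7.27 CPM in males. Female TG 1 lay just under male TG 2, so these groups touched, and the log2 fold change was 0.97 (SE 0.48). The sex effect differed between the ganglia by -1.31 on the log2 scale (SE 0.80), TG minus DRG, and this did not pass after adjustment over all genes. As a share of ligand RPKM, Dll4 made up 27.6%, 14.3% and 17% in female DRG and 3.04%, 3.72% and 10.7% in male DRG.

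Jag1 and Dll1 overlapped between the sexes in each ganglion. Jag1 (ENSMUSG00000027276.7, chromosome 2, 136907192 to 136942380) ranged from 49.9 to 143 CPM, with log2 fold changes of 0.50 (SE 0.29) in TG and -0.03 (SE 0.33, edgeR adjusted p = 0.983) in DRG. Dll1 (ENSMUSG00000014773.7, chromosome 17, 15504318 to 15513836), the ligand of neurogenesis in the embryo, was near the limit of detection in DRG, where the 6 libraries held 6 to 37 counts, or 0.508 to 4.40 CPM, and it did not pass the count filter there. In TG the 3 females held 2.55, 5.62 and 1.89 CPM and the males 2.0, 5.73 and 2.95 CPM. Its fitted difference there was -0.03 (SE 0.76) on the log2 scale.

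The promoters of Notch3 and Dll4, the members with a fold change above 2 and an unadjusted p under 0.05 in DRG, are given here as the 250 bases before the transcription start. They are RefSeq sequences in build GRCm38.p6, which is not the mm9 build of the counts, given 5′ to 3′ on the strand of the gene with each CG dinucleotide in capitals. Notch3 lies at chr17:32166891-32167140 on the minus strand and Dll4 at chr2:119325534-119325783 on the plus strand.
Notch3: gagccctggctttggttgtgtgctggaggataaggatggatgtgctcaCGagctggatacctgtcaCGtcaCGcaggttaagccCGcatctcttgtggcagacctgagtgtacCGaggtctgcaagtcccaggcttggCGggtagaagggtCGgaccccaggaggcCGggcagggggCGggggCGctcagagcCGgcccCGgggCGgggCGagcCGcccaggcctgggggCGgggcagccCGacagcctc
Dll4: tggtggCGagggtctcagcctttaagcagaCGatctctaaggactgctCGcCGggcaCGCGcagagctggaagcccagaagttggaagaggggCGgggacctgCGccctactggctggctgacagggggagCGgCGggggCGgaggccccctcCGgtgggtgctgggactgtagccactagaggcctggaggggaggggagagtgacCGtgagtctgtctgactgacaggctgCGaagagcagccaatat
The Notch3 window holds 17 CG dinucleotides and the Dll4 window 14, against a median of 6 over the 32851 promoters of the table. These counts are above those of 76.5% and 70.6% of all promoters. They are not particular to these genes, as the other members ranged from 4 for Notch4 to 54 for Jag2. The core TGGGAA of the RBPJ motif was searched on either strand in windows of 300 bases, from 250 before to 50 after the start. No promoter was available for the targets Hes1 and Hey1, so these were not searched. The core was in none of the 9 promoters found for the other 8 of the 10 genes and in 25.6% of all promoters. This says only that these letters are not in these windows.

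The target genes overlapped between the sexes in each ganglion. Hes1 and Hey1 encode repressors of the basic helix-loop-helix class that are switched on by cleaved Notch. Hey1 (ENSMUSG00000040289.3, chromosome 3, 8663362 to 8667039) had 39.8, 41.0 and 27.1 CPM in female DRG, 32.4, 40.5 and 27.5 CPM in male DRG, 36.3, 38.5 and 27.7 CPM in female TG and 36.4, 34.3 and 29.2 CPM in male TG. Within each ganglion the female and male values intermixed, and the library numbered 3 was the lowest of its group in all 4 groups. Its coefficient of variation over the 12 libraries was 15.6%, the smallest of the 10 genes, and Notch3 had the highest at 83.7%. The log2 fold changes of Hey1 were 0.09 (SE 0.26) in TG and 0.11 (SE 0.32, edgeR adjusted p = 0.933) in DRG.

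Hes1 (ENSMUSG00000022528.7, chromosome 16, 30064470 to 30067882) varied more. It had 14.4, 1.42 and 6.44 CPM in female DRG, 4.39, 4.32 and 5.20 CPM in male DRG, 5.10, 7.47 and 14.3 CPM in female TG and 3.01, 5.32 and 4.52 CPM in male TG. The female libraries held both the highest and the lowest values of DRG, the lowest resting on 16 counts, whereas the males lay close together. In TG the lowest female library was just under the highest male library. The log2 fold changes were 1.10 (SE 0.52) in TG and 0.68 (SE 0.82, edgeR adjusted p = 0.802) in DRG, and the latter was -0.25 without female DRG 1.

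**Figure D3:**
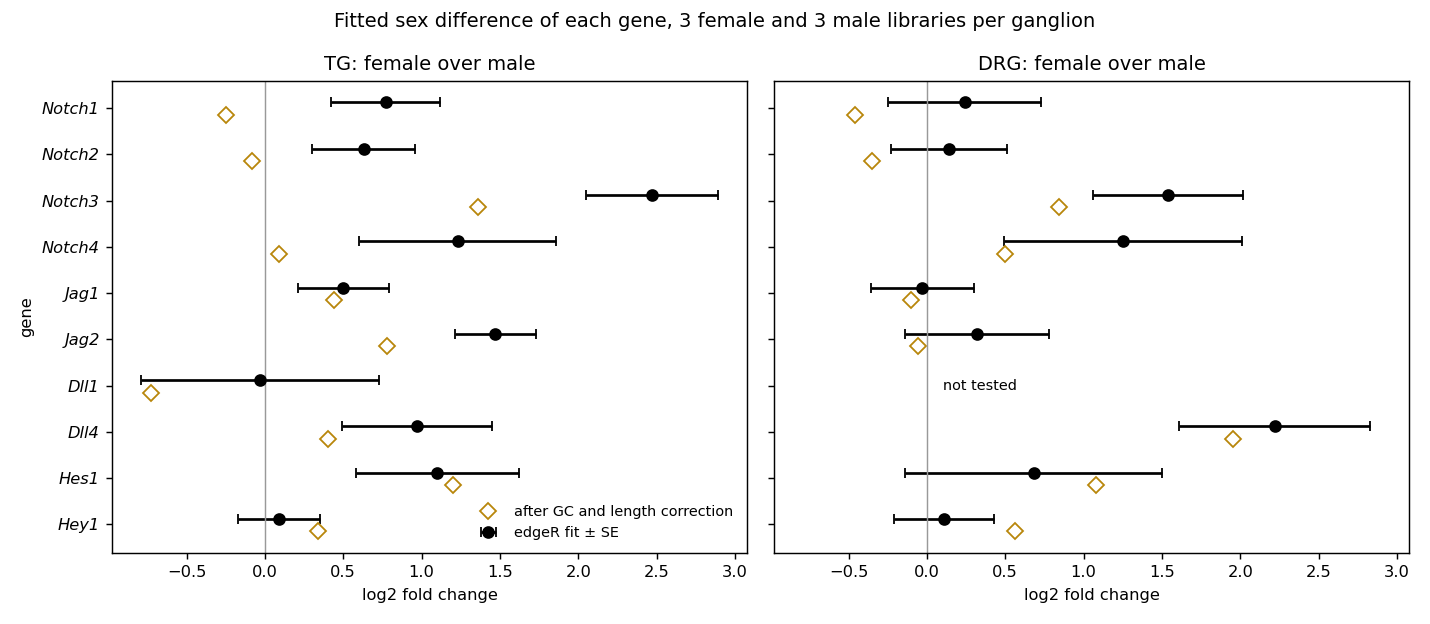
Fitted log2 fold change of female over male (x axis) for each gene (y axis) in TG (left) and DRG (right), from 3 female and 3 male libraries per ganglion. Black points are the edgeR estimates with bars of 1 SE and open diamonds are the estimates after GC and length correction, which lower Notch3 in TG (2.47 and 1.36) and DRG (1.54 and 0.84) and leave Dll4 in DRG near 2. Dll1 was not tested in DRG.

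Members were counted against criteria adapted from the study's, a fold change above 2, an unadjusted edgeR p under 0.05 and a mean CPM above 1 in the higher sex, where the study used DESeq and RPKM. With RPKM above 1 in place of CPM the members called were the same. Notch3 and Jag2 were female-selective in TG, 2 of 10 members, where 5.14% of the 14004 genes were female-selective and 2.24% male-selective. Without female TG 3 the count was 4, where 9.04% of genes were female-selective, and after GC and length correction it was Notch3 and Hes1, without Jag2. The same 2 members did not overlap between the sexes in TG, where 11.2% of genes were higher in all female libraries. As the set was proposed from this contrast, nothing is read from these counts. Of the 10 log2 fold changes in TG, 9 were above 0 with a median of 0.87, beside a median of 0.05 over all genes. After GC and length correction 7 were above 0 with a median of 0.37, beside 0.02.

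In DRG, 9 members were tested and Notch3 and Dll4 met the criteria, where 2.01% of the 13958 genes were female-selective and 2.93% male-selective. Without female DRG 2 or after GC and length correction only Dll4 met them. Dll4 alone did not overlap between the sexes, 1 of 9 members, against 7.84% of genes higher in all female libraries. No member, and 0% of all genes, had an edgeR adjusted p under 0.05 in DRG, although 1649 genes had an unadjusted p under 0.05 and DESeq2 called 317 genes. Of the 9 log2 fold changes, 8 were above 0 with a median of 0.32, beside a median of 0.02 over all genes, and after GC and length correction 5 were above 0 with a median of 0.50, beside 0.07. Leaving out the TMM scaling raised the median of all genes in DRG to 0.19. The scaling also moved the split of calls, from 280 female-selective and 409 male-selective genes to 582 and 161.

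None of the 10 members passed an edgeR adjusted p of 0.05 between TG and DRG, a test that called 0.965% of the 14824 genes, and the smallest adjusted p was 0.646, for Notch3. None had an unadjusted p under 0.05 either, and DESeq2 called 0 of the 10. With the library number as a block together with the GC and length correction, Notch3 passed, at -0.81 (edgeR adjusted p = 0.0414). None had 6 TG libraries apart from the 6 DRG libraries, as 1.36% of all genes had. Notch3 was at -0.62 (SE 0.33) for TG over DRG on the log2 scale and Jag2 one of 0.47 (SE 0.27, edgeR adjusted p = 0.690). Dll1 had the largest estimate, 1.07 (SE 0.79, edgeR adjusted p = 0.836), where TG averaged 3.46 ± 1.76 CPM and DRG 1.66 ± 1.59 CPM (SD over 6 libraries). Notch1, Dll4, Hes1 and Hey1 had estimates between -0.04 and 0.08. With 6 libraries against 6, the SE of Hey1 was 0.20 and that of Dll4 was 0.42 on the log2 scale, so that modest differences of the variable members could not be seen.

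The rest of the pathway was taken from a list of 45 further genes, made of the RBPJ complex, proteases, modifying enzymes, regulators and other targets. In TG, 39 were tested and 4 met the adapted criteria, all higher in females, where 5.14% of all genes did. They included Numbl, a relative of the Notch inhibitor Numb, at 1.51 (SE 0.37) on the log2 scale, the ubiquitin ligase gene Neurl1b with 1.42 (SE 0.52) and the target Heyl with 1.04 (SE 0.40). Numbl and Neurl1b did not overlap between the sexes, and Heyl did. Over the whole list, 5 genes were higher in all female libraries, as 11.2% of all genes were. Another 4 were lower (Adam10, Aph1b, Poglut1 and Itch), and no share over all genes was computed for this. The count meeting the criteria was 1 without female TG 2 and 2 without male TG 2. Without female TG 3 it was 8, where 2527 of 14374 genes met them in either direction. After GC and length correction it was 1, Neurl1a, which did not meet the criteria before. There Numbl was at 0.75, Neurl1b at 0.69 and Heyl at 0.33. The median over the 39 genes was 0.40 beside 0.05 over all genes, with 27 above 0. In DRG, 39 were tested and 2 met the criteria, where 2.01% of all genes were female-selective. They were Neurl1b with 1.93 (SE 0.81, edgeR adjusted p = 0.388) and the regulator Dtx1 with 3.87 (SE 1.78, edgeR adjusted p = 0.422), the latter averaging 4.94 ± 5.87 CPM over the 3 female and 0.329 ± 0.502 CPM over the 3 male libraries (SD). The count was 0 without female DRG 2 and after GC and length correction, and 1 without female DRG 1, male DRG 1 or male DRG 3. Without female DRG 3 it was 7, where 1580 of 14413 genes met the criteria in either direction. The median over the 39 genes was 0.28, with 26 above 0.

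Between TG and DRG, 1 of 41 tested pathway genes passed. Dner, a neuronal transmembrane protein related to the Delta ligands, averaged 158 ± 45.5 CPM over the 6 TG libraries and 78.4 ± 10.1 CPM over the 6 DRG libraries (SD). The fitted log2 difference was 1.02 ± 0.21 (SE, edgeR adjusted p = 0.0192, range 0.000293 to 0.0875 over the alternatives). The call was lost when any one of female TG 1, female TG 2, male TG 2, male TG 3, male DRG 1 or male DRG 2 was left out, with estimates of 0.85 to 1.04.

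Marker levels of other cell types moved with several members, and their part in the results was not tested. Across the 12 libraries, each member was correlated on the log2 scale with the summed level of 7 marker lists, 70 relations in all, with p-values from 100000 permutations adjusted over the 70. The libraries share groups and numbers, so they are not a plain random sample. Each list value is a plain sum of CPM, so abundant markers weigh most, as Apoe does among the satellite glia markers. Notch1 followed the satellite glia list most closely, at Pearson's r = 0.948 and Spearman's rho = 0.958 (permutation p = 1e-05 and 2e-05, adjusted 0.0007 and 0.0014, n = 12). The first of these p-values is the smallest that the permutations can give. It was 0.891 without female DRG 3 and male DRG 3, the libraries farthest out, 0.918 in TG, 0.974 in DRG (n = 6 each) and 0.819 over the 8 libraries numbered 1 and 2. Jag1 followed the same list at r = 0.875 and rho = 0.783 (permutation p = 0.00014 and 0.00379, adjusted 0.00327 and 0.0244), and at 0.707 without those libraries. Hey1 did so at r = 0.836 and rho = 0.699 (permutation p = 0.00062 and 0.0143, adjusted 0.0108 and 0.0626), and r was 0.733 without those libraries, but over the 8 libraries numbered 1 and 2 it was 0.133, so that its relation rests on the libraries numbered 3.

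Dll4 and Notch4 had their highest Pearson correlation with the 10 endothelial markers, and in TG it was higher with the macrophage list, at 0.937 for Dll4 and 0.971 for Notch4. For Dll4 r was 0.904 and rho 0.783 (permutation p = 0.00012 and 0.00383, adjusted 0.00327 and 0.0244, n = 12), and r was 0.837 without male DRG 1 and 2, 0.897 in TG and 0.938 in DRG. For Notch4 r was 0.807 and rho 0.881 (permutation p = 0.00199 and 0.00048, adjusted 0.0232 and 0.0112), and r was 0.853 without the same libraries, 0.910 in TG and 0.802 in DRG. The rho of Notch4 with the macrophage list was 0.895. The endothelial sum was 394 to 805 CPM in female DRG and 281 to 406 CPM in male DRG, and 502 to 831 CPM in female TG against 404 to 521 CPM in male TG. In DRG, 10 of 10 endothelial markers had a log2 fold change above 0 with a median of 1.09, Pecam1 at 0.98 and Cdh5 at 1.48, beside 2.22 for Dll4.

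Notch3 had its highest correlation with the fibroblast list, and with the mural list r was 0.663, a difference that was not tested. With the fibroblast sum r was 0.806 and rho 0.783, 0.692 without male TG 1 and 2, 0.757 in TG, 0.881 in DRG and 0.959 over the 8 libraries numbered 1 and 2. Within a ganglion other lists were closer, the endothelial list at 0.795 in TG and 0.942 in DRG and the macrophage list at 0.830 and 0.926, while the mural list was at 0.457 and 0.886. As Notch3 was known for its sex difference, no p is given. The fibroblast sum was 1480 to 2230 CPM in female DRG and 1060 to 1630 CPM in male DRG, and 1050 to 1700 CPM in female TG against 630 to 1430 CPM in male TG. The mural sum was 515 to 842 CPM in female DRG, 528 to 607 CPM in male DRG, 549 to 687 CPM in female TG and 508 to 641 CPM in male TG, so the sexes overlapped in each ganglion. In TG the mural markers Rgs5 and Acta2 had log2 fold changes of 0.11 and -0.92 beside 2.47 for Notch3, and in DRG 0.51 and 0.76 beside 1.54. Of the mural list, 7 of 9 tested markers were above 0 in TG with a median of 0.41, from -1.01 for Tagln to 1.81 for Cspg4. In DRG 8 of 9 were above 0 with a median of 0.68, from -0.39 for Mcam to 1.5 for Cspg4. Mcam had the highest level of the list, a median of 239 CPM, and weighs most in the mural sum. Des was at 0 in at least 1 library.

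**Figure D4:**
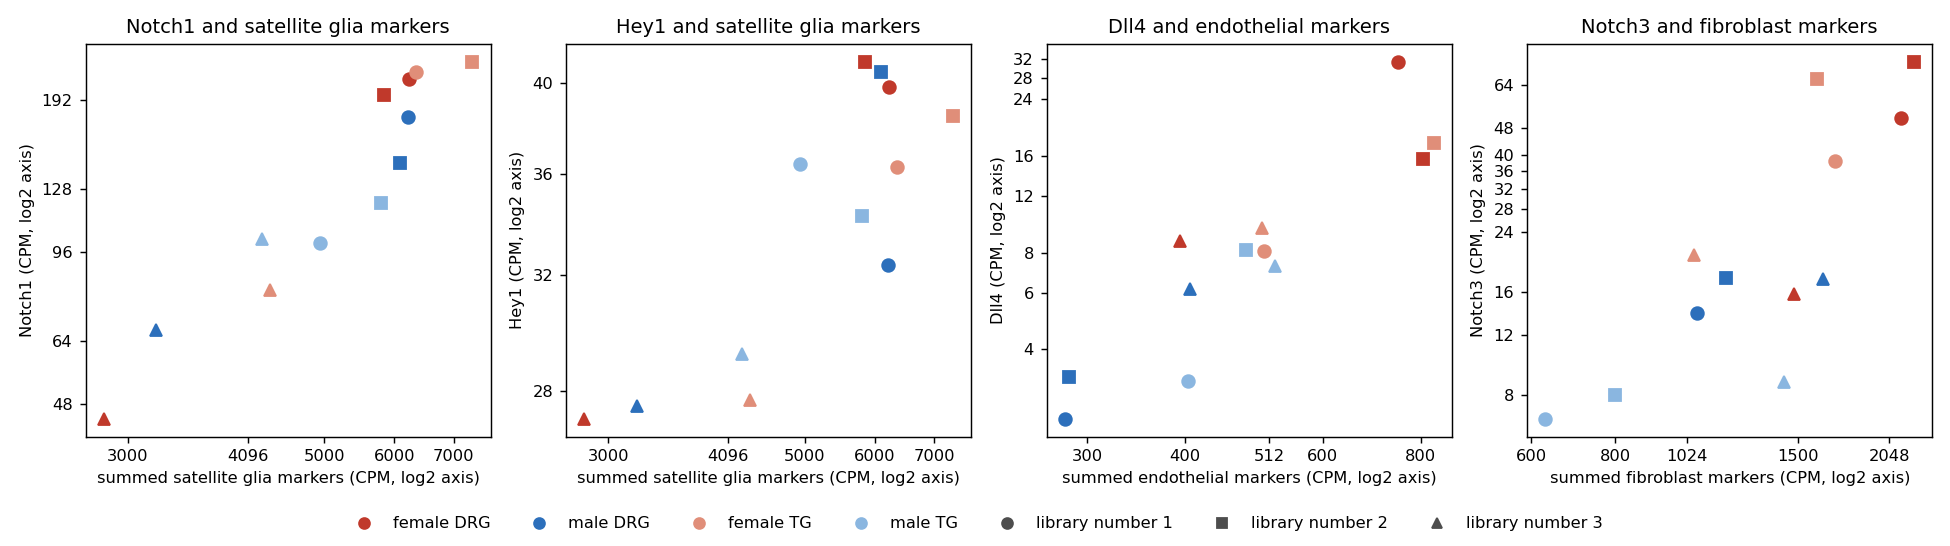
Level of 4 genes in CPM (y axes, log2) against the summed CPM of a marker list (x axes, log2) in each of the 12 libraries, coloured by group and shaped by library number. Notch1 is higher where the satellite glia sum is higher (r = 0.948), likewise Dll4 with the endothelial sum (r = 0.904) and Notch3 with the fibroblast sum (r = 0.806), whereas Hey1 shows a low cluster of the 4 libraries numbered 3 and no trend among the other 8 (r = 0.133).

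Notch2 had its highest correlation with the macrophage list (r = 0.784, rho = 0.846, permutation p = 0.00341 and 0.00101, adjusted 0.0285 and 0.0177, n = 12), which was 0.653 without female DRG 3 and male TG 1. The macrophage sum was 364 to 637 CPM in female TG and 214 to 385 CPM in male TG. Jag2 was also highest with that list, at r = 0.760 and rho = 0.713, and no p is given for the same reason as for Notch3. Over the 12 libraries Hes1 had no such partner, its highest r being 0.463, with the myelinating Schwann list. That r was 0.941 in DRG and -0.0421 in TG. Over the 12 libraries no member was positively correlated with the summed level of the 10 sensory neuron markers. Every such r was below 0, from -0.761 for Jag1 to -0.0112 for Hes1. Within a ganglion Hes1 was slightly above 0, at 0.134 in TG and 0.0446 in DRG. Tubb3 weighs most in this sum, with a median of 2060 CPM.

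The members themselves fell into sets. Notch2 with Jag1 (r = 0.906), Notch1 with Jag1 (r = 0.889) and Notch1 with Notch2 (r = 0.861) varied together over the 12 libraries, as did Notch4 with Dll4 (r = 0.842). The targets Hes1 and Hey1 did not (r = -0.299). Among all genes, those most like Notch3 were Islr, Vamp2, Dock6, Hr and Frmpd1, with r from 0.959 to 0.944. Those most like Dll4 were Aplnr, Cxcl12, Mmrn2, Cdk8 and Sugp1, with r from 0.935 to 0.917, of which Aplnr and Mmrn2 are endothelial genes. Those most like Hes1 were Cenpe, Ptpn18, Evl, Tonsl and Kctd3, with r from 0.901 to 0.888. Those most like Hey1 included Fads2, Spon1, Scarna10 and Rmrp, with r from 0.919 to 0.900. These correlations are descriptions over libraries that share groups.

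Some properties of the genes and libraries touch these values. Notch3, Notch4 and Jag2 are rich in GC, at 59.6%, 59.7% and 61.3% of their exons, above 95.1%, 95.2% and 97.7% of the genes of the 12-library model. Reads assigned to no counted feature were 43.5% to 50.4% of these and the counted reads together in females and 37.6% to 47.9% in males. Whether such reads fell within or outside genes is not given. Exons of Notch1, Notch3, Dll1 and Dll4 overlap those of long non-coding genes on the opposite strand, over 214 bases for Dll4 and Gm14207. The strand setting of the counting is not given in the sources used here, so reads of these overlaps are uncertain.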

How the data were processed

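RNA of Percoll-enriched fractions was sequenced as 12 single-end libraries in 4 groups, and groups and numbers came from sample titles. The authors aligned reads to mm9 with TopHat2 and counted them with HTSeq. The deposited unit is the raw read count of each gene symbol, not normalized, with 5 closing lines per file that are no genes.

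Here, genes were kept by filterByExpr and scaled by TMM, and contrasts were tested with the quasi-likelihood test of edgeR 4.0.16 in R 4.3.3, with Benjamini-Hochberg adjustment over all genes tested: the sexes in the 6 libraries of each ganglion, and TG against DRG and the difference of the sex effects in a model of all 12. Log2 fold changes are female over male or TG over DRG. CPM shown are scaled over 12 libraries, and RPKM divides them by exon length in GENCODE for mm9, which matched 21679 genes (95.9%). The 10 members, the pathway list and the marker lists were chosen with earlier results of these data known. Text names all members, pathway genes meeting the criteria or passing adjustment, and the 5 genes most like Notch3, Dll4, Hes1 and Hey1. Some genes that meet this rule are not reported here. Genes that check the sex label were left out of counts. The GC and length correction fitted splines (4 df) to each library. Alternatives were DESeq2 1.42.0, no TMM, no filter, left-out libraries, a block on library number and the libraries numbered 1 and 2 only, the last chosen after seeing the data for TG against DRG. For TG against DRG the block was on sex and library number. Floors of 3 counts cover counting error only, since reads had no molecular identifiers. Scripts were tested on simulated counts.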

Additional observations from a re-analysis of the deposited data

Results flagged for a closer look

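Notch4 in TG was the value that stood farthest from its neighbours. Female TG 2 had 21.9 CPM, and the next of the 6 TG libraries had 8.98 CPM, a gap of 0.655 of the range of the 6 values and above the 95% limit of Dixon's test for 6 values. It was the only one of 20 such tests, 10 genes in 2 ganglia, to exceed the limit, and chance alone gives about 1 in 20. Without female TG 2 the TG over DRG estimate of Notch4 was -0.23 on the log2 scale.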

How the results depend on the processing

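The limits are 3 libraries a group, a spread of 7511765 to 15396090 reads in genes and, for Dll1, a few counts a library. Mean marker sums of other cells were higher in females, except satellite glia in DRG, and the sexes overlapped in each list. Reads assigned to no counted feature also overlapped, at 43.5% to 50.4% in females and 37.6% to 47.9% in males. The GC content of the libraries was not measured, but the GC and length correction moved several sex differences. The part of each of these was not tested. Notch3 in TG (1.33 to 2.83), Dll4 in DRG (1.60 to 3.08) and Notch3 in DRG (0.74 to 2.04) were above 0 on the log2 scale under every alternative run. The causes of the changes listed next were not tested.

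Counts of members meeting the criteria in TG (2) were 0 at an adjusted p under 0.05, 1 with the replicate block and the GC and length correction, 6 with libraries numbered 1 and 2 only, where 13.1% of all genes were female-selective against 5.14%, and 2 to 4 with a library left out. With the GC and length correction alone Hes1 took the place of Jag2. Pathway counts in TG (4) were 2 with the replicate block, 1 with the GC and length correction, 0 with both, 2 in the model of all 12 libraries, 9 with libraries numbered 1 and 2 only, 0 at an adjusted p, and 1 to 8 with a library left out. Counts of members in DRG (2) were 1 with the GC and length correction, with or without the replicate block, 0 at an adjusted p, and 1 to 3 with a library left out. Pathway counts in DRG (2) were 4 without TMM, 0 with the GC and length correction, with or without the block, 1 in the model of all 12 libraries, 5 at a fold change above 1.5, 0 at an adjusted p, and 0 to 7 with a library left out. Between TG and DRG, 1 member, Notch3 (-0.81, edgeR adjusted p = 0.0414), passed with the block and the GC and length correction, and the pathway count (1) was 0 to 1 with a library left out.

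Estimates near 0 changed sign. In DRG, female over male, the GC and length correction gave Notch1 -0.46, Notch2 -0.35 and Jag2 -0.06, and with the replicate block added -0.53, -0.40 and -0.08. Jag1 was 0.17 without TMM and 0.06 with libraries numbered 1 and 2 only. With a library left out the ranges were -0.09 to 0.67 for Notch1, -0.33 to 0.44 for Notch2, -0.24 to 0.23 for Jag1, -0.05 to 0.64 for Jag2 and -0.25 to 1.17 for Hes1. For TG over DRG, no TMM gave Notch1 0.01, Dll4 0.02 and Hey1 0, the replicate block gave Notch1 0.10 and Dll4 0.06, the GC and length correction gave Notch2 -0.01 and Notch4 -0.15, the latter -0.03 with the block, and libraries numbered 1 and 2 only gave Notch2 -0.02, Dll4 0.06 and Hes1 -0.20. With a library left out the ranges were -0.24 to 0.15 for Notch1, -0.23 to 0.53 for Notch4, -0.21 to 0.30 for Dll4, -0.17 to 0.54 for Hes1 and -0.12 to 0.04 for Hey1.

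Library numbers were shared by the groups, and the main fits did not take same-numbered libraries as pairs. Their deviations from the group means correlated at -0.0984 to 0.216, and at 0.0277 to 0.216 between TG and DRG of a sex. Differently numbered libraries were not compared, so these values cannot decide whether the libraries are paired. Between TG and DRG, 562 of 14824 genes passed with the block and 143 without it, with 0 members in either. The order of levels depends on length: by CPM, Notch1 was first and Jag1 moved to position 3.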
